A study of Mus musculus with 12 samples.

Results

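The effect of 7-hydroxycoumarin (7-HC) given alone was examined by comparing the 3 RNA-seq libraries of the 7-HC group with the 3 of the control group, over the 10282 genes that reached 1 FPKM in 3 or more of these 6 libraries, out of 22899 genes listed and 17738 with values. FPKM is the number of fragments scaled to transcript length and to the mapped fragments of a library, so it can be set side by side between genes. All 12 mice of the series were adult Kunming mice, an outbred stock, recorded as female and 6 to 8 weeks old, with 3 mice a group and no genetic modification named. For 7 days the 7-HC group was given 50 mg/kg of 7-HC daily and the control group saline. The colistin + 7-HC group and the colistin group, which received colistin at 15 mg/kg/day with and without the same dose of 7-HC, serve below to set the effect of 7-HC beside its effect in colistin-treated mice. According to the methods 7-HC was dissolved in DMSO, so 7-HC and its vehicle cannot be told apart in any difference given here.

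7-HC, also called umbelliferone, is a plant coumarin and the main product of coumarin hydroxylation by CYP2A enzymes. It is cleared mostly as a glucuronide or a sulfate, made by UDP-glucuronosyltransferases (UGTs) and sulfotransferases (SULTs) that are abundant in hepatocytes. The study asked whether it protects the kidney from colistin, and this comparison asks which genes differ when 7-HC is given without colistin.

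The libraries are labelled kidney, but markers of nephron cells were near 0. Umod, Slc7a13 and Pvalb were listed at 0 in all 6 libraries, and of the proximal tubule list only Cyp4b1 (4.38 to 8.98 FPKM) passed the filter, with the other members that hold values at 0.33 FPKM or less. The 12 hepatocyte markers summed to between 110900 and 123400 FPKM in 7-HC libraries and between 98890 and 108600 FPKM in control libraries, and Alb, encoding albumin, made up 10.7% to 13.6% of the values in 7-HC and 8.05% to 10.9% in control. The results are therefore described as those of the sampled tissue, whose leading markers are those of liver. The 4 Y-linked genes of the list summed to between 25.1 and 33.8 FPKM in 7-HC and between 31.2 and 38.8 FPKM in control, in mice recorded as female. Values summed to 517984 to 583245 per 7-HC library and 536615 to 564549 per control library. Read depth is unknown, and among low values only 9 to 18 genes were above 0 in both libraries of a pair, too few to recover it. Correlations of log2 values across the tested genes were 0.971 to 0.983 within and 0.959 to 0.979 between the groups. Replicate 1 of the 7-HC group stood apart on the second principal component (24.2% of the variance).

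Few genes passed the test. With limma, 21 of 10282 genes were called at an adjusted p under 0.05, which is 0.204% of the genes tested. The 9 genes that rose (0.0875%) were the metallothionein genes Mt1 and Mt2, the acyl-CoA thioesterase gene Acot1, Elmod3, the sterol synthesis genes Tm7sf2 and Pmvk, Klk1b4, Ropn1l and Nudt14. The 12 that fell (0.117%) were the steroid dehydrogenase genes Hsd3b5 and Hsd3b2, Adh4, the UGT genes Ugt2b35 and Ugt1a6a, Hectd2, Shroom3, Serpina11, Shank2, C8a, Svil and Asap3. Of these, Shroom3 and Shank2 passed the filter only through the control libraries. In all 21 the 3 values of 7-HC lay on one side of the 3 control values, and groups lay apart in this way for 1638 genes (15.9%). A fold change of 2 or more was reached by 11 of the 21, and 0 reached the stricter limits named in the paper's methods (2-fold and 0.001). The median log2 fold change of all tested genes was -0.04, and 42.5% of genes were above 0. At an unadjusted p under 0.05 there were 988 genes (9.61%), with 316 higher (3.07%) and 672 lower (6.54%). These shares are the background for every count of list members at that level given below. The number called depended on which libraries set the spread: a fit of only these 6 libraries called 2 genes, Mt2 and Hsd3b2, while leaving out 1 of them at a time gave 8 to 56. In bulk tissue, fewer cells of a type and less RNA per cell cannot be told apart.

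**Figure D1:**
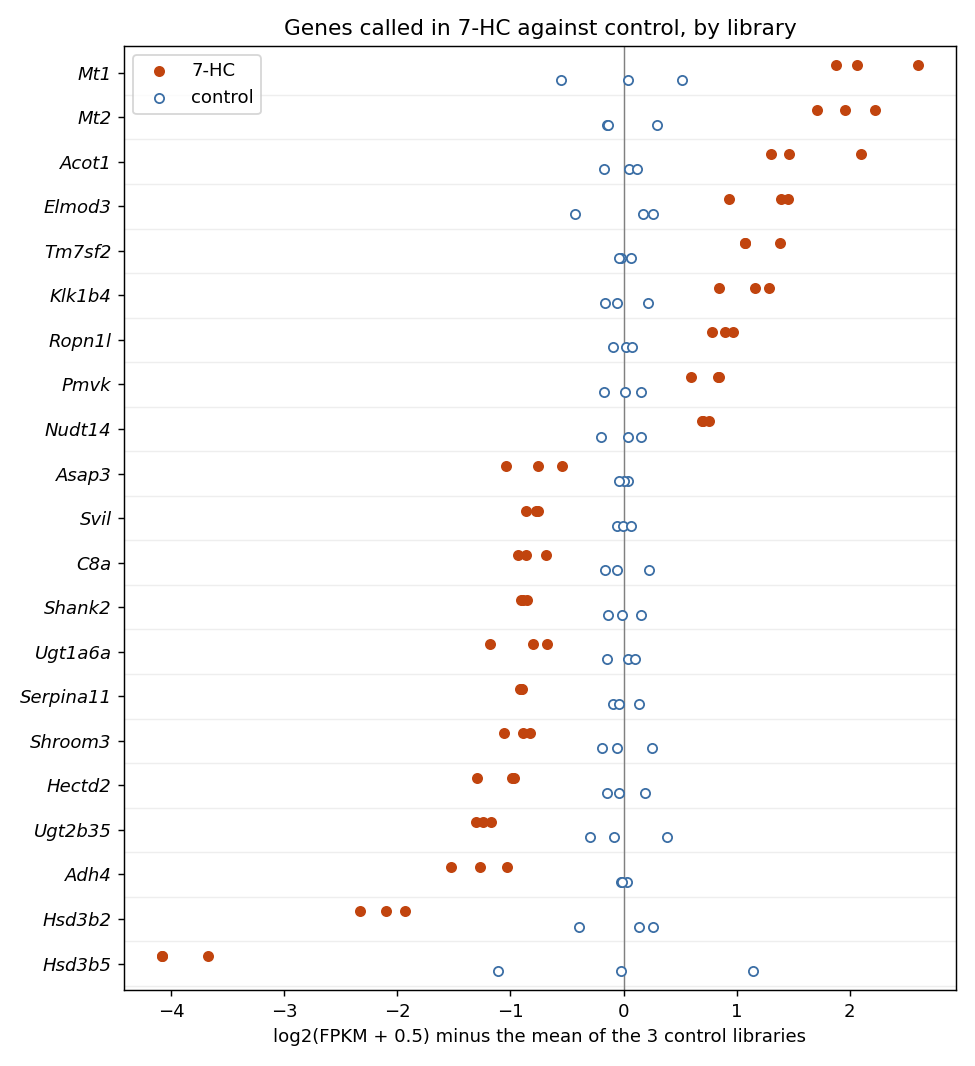
Each of the 21 genes called, with log2(FPKM + 0.5) in every library on the x axis relative to the mean of the 3 control libraries; filled points are 7-HC libraries and open points control libraries. The 9 genes in the upper rows were higher and the 12 in the lower rows lower in 7-HC, with no overlap between the groups, and Hsd3b5 shows the widest spread among control mice.

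Metallothioneins were among the genes that changed most. Mt1 and Mt2 encode small cysteine-rich proteins that bind zinc and copper and are transcribed from neighbouring genes on chromosome 8. Mt1 was at 1092.6, 1587.9 and 962.9 FPKM in 7-HC mice, against 268.6, 178.2 and 373.0 FPKM in control mice. Every 7-HC value lay above the highest control value, with a log2 fold change of 2.18 ± 0.27 (SE; limma adjusted p = 0.00729). Mt2 was at 667.8, 955.3 and 793.9 FPKM in 7-HC, against 249.5, 183.5 and 184.5 FPKM in control (log2 fold change 1.97 ± 0.23 SE, limma adjusted p = 0.00676). Mt2 was the only gene called under all 15 alternatives (9 other filters, pseudocounts, scalings or models, and each of the 6 libraries left out), and Mt1 was lost only in the fit of 6 libraries. Of the 13 tested genes of the metallothionein and iron list, these 2 were the only ones called, and the list's median of -0.08 was near that of all genes. Tfrc, the transferrin receptor gene, stood at 3.73, 2.52 and 3.71 FPKM in 7-HC and 5.13, 5 and 5.1 FPKM in control, with a log2 fold change of -0.56 that did not pass (adjusted p = 0.312 from limma). The 250 bases before a RefSeq transcript start of each gene are shown because metal-responsive transcription acts through metal response elements in promoters. Capitals mark the core TGCACNC or TGCGCNC on either strand, found in 21.4% of 32851 promoter windows of the same length. Counted by gene, 5 of the 10 genes of the list that have a window held it in any of their windows. The windows (RefSeq, GRCm38.p6) are chr8:94178839-94179088, plus strand, with 1 match for Mt1, and chr8:94172368-94172617, plus strand, with 3 matches for Mt2. The Mt1 gene begins at base 94178883, inside the first window, with an annotated longer transcript, so the match counts of the genes cannot be compared. Elements outside the windows were not examined. A match is a description of the letters, not a site of binding.
Mt1: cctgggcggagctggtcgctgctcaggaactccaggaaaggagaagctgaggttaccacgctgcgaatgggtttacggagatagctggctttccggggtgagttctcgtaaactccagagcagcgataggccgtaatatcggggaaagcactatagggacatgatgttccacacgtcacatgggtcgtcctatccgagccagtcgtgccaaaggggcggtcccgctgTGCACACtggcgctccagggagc
Mt2: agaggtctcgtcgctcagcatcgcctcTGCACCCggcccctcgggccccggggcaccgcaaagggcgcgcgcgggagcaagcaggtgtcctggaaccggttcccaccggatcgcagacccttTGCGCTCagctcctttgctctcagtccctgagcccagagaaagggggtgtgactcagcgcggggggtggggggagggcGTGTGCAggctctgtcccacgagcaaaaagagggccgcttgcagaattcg

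Genes of lipid synthesis were mostly higher in 7-HC, and 2 of them passed. Hepatocytes make sterols from acetyl-CoA through mevalonate and squalene, and fatty acids through acetyl-CoA carboxylase, fatty acid synthase, elongases and desaturases. Tm7sf2, which encodes a sterol C14-reductase, was at 157.5, 127.3 and 127.0 FPKM in 7-HC mice and at 63.0, 59.2 and 58.4 FPKM in control mice. Both groups were tight and well separated, with a log2 fold change of 1.18 ± 0.13 (SE; limma adjusted p = 0.00396). Pmvk, phosphomevalonate kinase, was at 36.8, 37.1 and 31.2 FPKM in 7-HC and 22.9, 18.1 and 20.7 FPKM in control. Its log2 fold change of 0.76 (adjusted p = 0.0464 from limma) stood just inside the threshold and was kept under 3 of the 15 alternatives. Of 25 cholesterol synthesis genes tested, these 2 were called and none was called lower. The median of the list was 0.46 and 23 members were above 0, beside 42.5% of all genes. Fdps, which makes farnesyl diphosphate, stood at 86.2, 117.7 and 98.0 FPKM in 7-HC and 60.9, 53.2 and 35.0 FPKM in control, without overlap but short of the threshold (log2 fold change 1.04, adjusted p = 0.109 from limma). 7-HC replicate 1 lay apart from the other 7-HC libraries in much of the list: it held the lowest value of the 6 libraries for 8 of the 25 genes. Tm7sf2, Pmvk and Ebp were exceptions, with replicate 1 among the high values. Without replicate 1 the median of the list was 0.64 and all 25 members were above 0, and without 7-HC replicate 3 the median was 0.27 with 19 above 0.

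Of 18 fatty acid synthesis genes none passed over all genes, 7 had an unadjusted p under 0.05, all of them higher, beside 3.07% of all genes for that direction, and the median was 0.47. The median was 0.89 with 11 such genes without 7-HC replicate 1, and 0.33 and 0.32 with 5 each without 7-HC replicates 2 and 3. Without control replicate 3, the lowest library for 13 of the 18 genes, it was 0.36, also with 5. Scd1, the stearoyl-CoA desaturase gene, was at 3941.7, 6042.6 and 3814.3 FPKM in 7-HC and 1724.6, 1911.9 and 1308.5 FPKM in control. The groups did not overlap, and the log2 fold change of 1.47 had an adjusted p of 0.173 from limma. Fads1, a desaturase gene of long polyunsaturated fatty acids, had 182.9, 242.7 and 227.4 FPKM in 7-HC and 119.3, 132.5 and 104.8 FPKM in control (log2 fold change 0.87, adjusted p = 0.158 from limma). Srebf1, which encodes the transcription factor SREBP-1, stood the other way at 8.55, 31.9 and 22.2 FPKM in 7-HC and 52.4, 26.1 and 26.1 FPKM in control, with overlapping groups. The summed level of the list was 5209 to 8063 FPKM in 7-HC libraries and 2194 to 3353 FPKM in control libraries, without overlap. Scd1 made up most of the sum in each library, so the gap between the sums does not describe the other members.

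Among genes of fatty acid oxidation and targets of PPAR alpha, the nuclear receptor that senses fatty acids, 1 of 33 was called. Acot1, a cytosolic acyl-CoA thioesterase gene, was at 32.3, 28.9 and 50.3 FPKM in 7-HC and 10.1, 11.8 and 12.4 FPKM in control, with a log2 fold change of 1.62 ± 0.20 (SE; limma adjusted p = 0.00729). It has close copies in the same gene cluster, between which reads can be split. The list's median was 0.27, with 30 of 33 members above 0, beside 42.5% of all genes. At an unadjusted p under 0.05, 11 were higher and 1 lower, beside 3.07% and 6.54% of all genes. 7-HC replicate 3 held the highest value for 24 of the 33 genes, and without it 5 were higher at that level, with 7 without control replicate 3. Cyp4a10, a fatty acid omega-hydroxylase gene, was at 706.5, 730.9 and 869.6 FPKM in 7-HC and 334.0, 272.1 and 266.0 FPKM in control (log2 fold change 1.40, adjusted p = 0.204 from limma). Pdk4, which slows pyruvate oxidation, was at 3.13, 2.37 and 5.98 FPKM in 7-HC and 0.78, 1.65 and 0.71 FPKM in control (adjusted p = 0.155 from limma). Fgf21, a hormone gene and known PPAR alpha target, overlapped between the groups, with a log2 fold change of 0.51. The 1 member lower at an unadjusted p under 0.05 was Cyp4a12a, a male-typical enzyme gene.

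**Figure D2:**
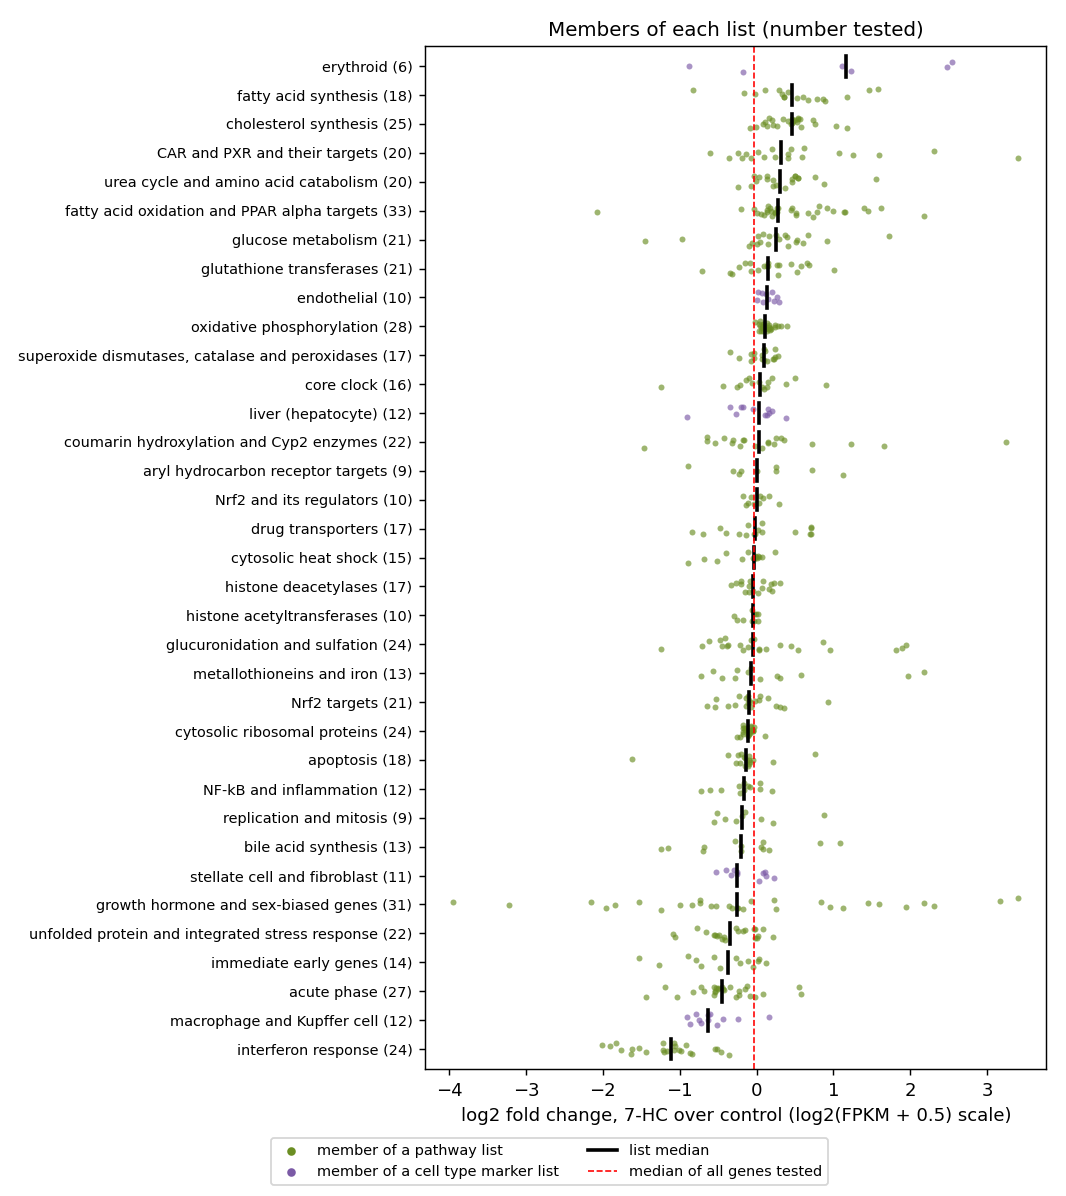
Log2 fold change of 7-HC over control for the tested members of each list with 5 or more (number in brackets); black bars are list medians and the dashed line is the median of all genes tested. Lipid synthesis lists lie to the right and the interferon response (median -1.12) lies farthest left, while the growth hormone and sex-biased list spreads in both directions.

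The largest falls among the genes called were in 2 genes of steroid metabolism. Hsd3b5, which in mice encodes a 3-ketosteroid reductase typical of male liver, was at 2.44, 2.44 and 3.40 FPKM in 7-HC mice and at 48.4, 109.2 and 22.5 FPKM in control mice. The control values differed widely among themselves, yet the lowest exceeded every 7-HC value, and the log2 fold change was -3.94 ± 0.41 (SE; limma adjusted p = 0.00396). Hsd3b2, a relative that converts hydroxysteroids, was at 16.1, 13.7 and 18.2 FPKM in 7-HC and 77.8, 85.1 and 53.9 FPKM in control (log2 fold change -2.12 ± 0.30 SE, limma adjusted p = 0.0182, called under 9 of the 15 alternatives). Both belong to a family of near-identical genes, so the split of reads between them is uncertain. Of 31 tested genes that respond to growth hormone or differ between the sexes in liver, Hsd3b5 was the only one called. At an unadjusted p under 0.05, 9 were lower and 5 higher, beside 6.54% and 3.07% of all genes. When the list was parted by textbook knowledge into male-typical and female-typical genes, a division made after the values were seen and given without a test, all 11 male-typical genes tested were lower in 7-HC (median -1.52) and 11 of 12 female-typical genes were higher (median 1.52). Control replicate 2 stood apart in the whole list of 31, with the highest value for 14 genes and the lowest for 11, and without it 9 were lower and 2 higher at an unadjusted p under 0.05. Without 7-HC replicate 2 these were 6 lower and 3 higher of 29 tested, and without 7-HC replicate 3 they were 9 lower and 3 higher of 29. Among the male-typical genes, Mup20, a urinary protein gene, averaged 48.5 FPKM in 7-HC and 241.7 FPKM in control, and Selenbp2 averaged 21.9 FPKM in 7-HC and 68.7 FPKM in control. Among the female-typical genes, Cyp17a1 averaged 17.7 FPKM in 7-HC and 0.83 FPKM in control, and Cyp2b9 averaged 238.4 FPKM in 7-HC and 96.8 FPKM in control. Cyp3a41a was at 22.3, 89.9 and 4.41 FPKM in 7-HC and 8.88, 0.18 and 0.84 FPKM in control, so that its log2 fold change of 3.40 had a wide interval of 0.58 to 6.23 and did not pass. The 8 genes of growth hormone signalling had a median of -0.31, and 2 of them were lower at an unadjusted p under 0.05, among them Cish, a feedback inhibitor of the receptor (log2 fold change -0.74, adjusted p = 0.344 from limma). The sums of the Y-linked genes, given above, overlapped between the groups, and the part of a difference in sex or hormone state was not tested.

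Of the enzymes that make or conjugate 7-HC few were called. CYP2A genes, whose products hydroxylate coumarin, varied strongly among mice: Cyp2a5 was at 1206.2, 1377.6 and 568.0 FPKM in 7-HC and 803.9, 224.7 and 407.5 FPKM in control, with overlapping groups. None of the 22 genes of the coumarin hydroxylation and Cyp2 list was called, with 2 higher and 3 lower at an unadjusted p under 0.05. Of the 24 tested genes of the glucuronidation and sulfation list 1 was called, Ugt2b35. Ugt1a6a, also a UGT gene and called, was listed with the aryl hydrocarbon receptor targets instead. Ugt2b35 fell to 30.3, 27.5 and 28.7 FPKM in 7-HC, against 55.8, 64.97 and 89.9 FPKM in control (log2 fold change -1.24 ± 0.20 SE, limma adjusted p = 0.0329, called under 7 of the 15 alternatives). Ugt2b5, of the same family, lay on the same side without passing, with 225.7, 212.7 and 243.4 FPKM in 7-HC and 361.4, 429.8 and 331.3 FPKM in control (adjusted p = 0.359 from limma). Ugt1a6a, whose enzyme conjugates planar phenols and which the aryl hydrocarbon receptor controls, was at 6.06, 8.02 and 8.79 FPKM in 7-HC and 12.9, 14.8 and 15.5 FPKM in control (log2 fold change -0.89, adjusted p = 0.0477 from limma). It was called under 2 of the 15 alternatives, and because Ugt1a transcripts share their last exons its reads cannot be parted cleanly from those of its neighbours. Ugt1a5, in the same cluster, stood the other way with 49.6, 81.9 and 65.9 FPKM in 7-HC and 25.97, 15.6 and 14.2 FPKM in control (log2 fold change 1.82, adjusted p = 0.155 from limma). Among sulfotransferases, Sult1a1, which sulfates phenols, had 470.9, 363.9 and 399.2 FPKM in 7-HC and 186.4, 203.1 and 296.3 FPKM in control, without overlap but with a limma adjusted p of 0.636. Of 9 aryl hydrocarbon receptor targets tested, only Ugt1a6a was called, and Cyp1a2 overlapped between the groups.

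Adh4, a class II alcohol dehydrogenase gene that also oxidises retinol, fell to 27.7, 33.2 and 39.1 FPKM in 7-HC, against 79.6, 82.3 and 80.0 FPKM in control (log2 fold change -1.28 ± 0.16 SE, limma adjusted p = 0.00729). Its control values were almost the same in the 3 mice. None of 20 targets of the xenobiotic receptors CAR and PXR was called, with a median of 0.32. At an unadjusted p under 0.05, 4 were higher, beside 3.07% of all genes for that direction. Cyp2b10, a CAR target, was at 20.8, 31.6 and 19.8 FPKM in 7-HC and 9.85, 4.77 and 18.4 FPKM in control (adjusted p = 0.415 from limma). The position of this list rested on control replicate 2, which held the lowest value for 13 of the 20 genes, and without it the median was 0.06 with 10 genes above 0. None of 21 glutathione transferase genes was called, and 4 were higher and 0 lower at an unadjusted p under 0.05. Of these, 8 had 7-HC values all above the control values, against 5.88% of all genes, as Gstt1 at 257.2, 242.2 and 230.5 FPKM in 7-HC and 149.8, 116.4 and 200.3 FPKM in control (adjusted p = 0.266 from limma). 7-HC replicate 1 was highest for 9 of the 21 and control replicate 2 lowest for 11. Without 7-HC replicate 1 the list's median was 0.09, against 0.15 with all libraries, with 3 higher and 2 lower at an unadjusted p under 0.05. Without control replicate 2 the median was also 0.09, with 2 higher, and without 7-HC replicate 2 there were 2 higher as well.

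The other genes that passed have varied roles, and many were called under only some of the 15 alternatives. Svil was called under 12 of them, Klk1b4 under 11, C8a under 9, and Serpina11, Asap3, Elmod3 and Nudt14 under 7 each. Shank2 was called under 6, Hectd2 under 5 and Shroom3 under 2. C8a, encoding the alpha chain of complement component C8 in the membrane attack complex, fell to 91.0, 86.8 and 102.7 FPKM in 7-HC, against 158.8, 193.9 and 147.6 FPKM in control (log2 fold change -0.83, adjusted p = 0.0274 from limma). Serpina11, a serpin gene of hepatocytes, fell to 96.5, 95.7 and 95.4 FPKM in 7-HC, against 198.0, 168.6 and 175.8 FPKM in control (log2 fold change -0.91, adjusted p = 0.0276 from limma). Svil, encoding the actin-binding supervillin, was at 1.66, 1.83 and 1.80 FPKM in 7-HC and 3.28, 3.41 and 3.60 FPKM in control. Shroom3, which shapes epithelial cells through actin, averaged 0.76 FPKM in 7-HC and 1.91 FPKM in control. Shank2, a scaffold protein gene, averaged 0.81 FPKM in 7-HC and 1.92 FPKM in control. All 7-HC values of Shroom3 and Shank2 were under 1 FPKM, so both passed the filter only through the control libraries. Neither was tested when 1 FPKM was required in all 6 libraries. Asap3, an Arf GTPase-activating protein gene, averaged 2.46 FPKM in 7-HC and 4.52 FPKM in control. Their log2 fold changes ranged from -0.92 for Shroom3 to -0.78 for Asap3, and at such low levels the pseudocount of 0.5 makes these smaller than the ratio of the means. Hectd2, a ubiquitin ligase gene, fell by 1.08 on the log2 scale (adjusted p = 0.0422 from limma).

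Of those that rose, Ropn1l, known from the sperm flagellum, was at 16.9, 14.8 and 16.1 FPKM in 7-HC and 8.53, 7.80 and 8.84 FPKM in control (log2 fold change 0.88 ± 0.09 SE, limma adjusted p = 0.00396). Elmod3, which acts on Arf-family GTPases, was at 9.09, 13.3 and 12.7 FPKM in 7-HC and 5.17, 3.24 and 5.53 FPKM in control (log2 fold change 1.26, adjusted p = 0.0329 from limma). Nudt14, which hydrolyses UDP-sugars, was at 55.3, 55.0 and 57.5 FPKM in 7-HC and 34.8, 29.5 and 37.9 FPKM in control (log2 fold change 0.72, adjusted p = 0.0418 from limma). Klk1b4, of the glandular kallikrein family with many near-identical copies, averaged 10.1 FPKM in 7-HC and 4.45 FPKM in control (log2 fold change 1.09, adjusted p = 0.00968 from limma). Just outside the threshold stood 2010003K11Rik, with 20.1, 26.5 and 24.7 FPKM in 7-HC and 14.8, 10.2 and 8.90 FPKM in control (log2 fold change 1.06, adjusted p = 0.0587 from limma).

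Genes of the interferon response were all lower in 7-HC on average, and none passed. Interferons signal from cell surface receptors through Janus kinases to genes that carry interferon-stimulated response elements. All 24 tested genes had a negative log2 fold change, with a median of -1.12, and 16 of them had an unadjusted p under 0.05, beside 6.54% of all genes for that direction. Control replicate 3 lay apart from the other control mice here. Isg15, a ubiquitin-like modifier gene, was at 3.61, 2.50 and 3.31 FPKM in 7-HC and 24.1, 29.0 and 3.72 FPKM in control (log2 fold change -2.01, adjusted p = 0.333 from limma). Control mice 1 and 2 were far above the 7-HC mice, and control mouse 3 was at their level. Ifit1, which binds foreign RNA, was likewise at 0.94, 0.72 and 1.5 FPKM in 7-HC and 9.85, 7.68 and 1.12 FPKM in control. Irf7, the transcription factor that amplifies the response, did not overlap, at 14.9, 12.6 and 14.3 FPKM in 7-HC and 49.5, 116.5 and 26.3 FPKM in control (log2 fold change -1.91, adjusted p = 0.162 from limma). Usp18, which removes ISG15 from proteins, had 3.34, 4.53 and 5.99 FPKM in 7-HC and 17.4, 20.5 and 9.06 FPKM in control (log2 fold change -1.62, adjusted p = 0.132 from limma). Summed over the list, 7-HC libraries held 124.5, 161.8 and 147.0 FPKM and control libraries 382.1, 577.4 and 170.4 FPKM. Without control replicate 3 the median was -1.62 and 10 of the 24 were called lower, and without control replicate 2 it was -0.81 with none called. The 16 genes with an unadjusted p under 0.05 became 21 without control replicate 3, 10 without control replicate 1, 8 without control replicate 2 and 10 without 7-HC replicate 2. The promoters of Isg15 and Ifit1 are shown because these genes carry the spread among control mice. Capitals mark GAAA, then NN, then GAAA (the core of the interferon-stimulated response element) on either strand, with overlapping matches joined. It was found in 2.98% of the 32851 windows. Of the 19 genes of the list that have a window, 11 held it in any of their windows, a count by gene and not by window. The windows (RefSeq, GRCm38.p6) are chr4:156200819-156201068, minus strand, for Isg15 with 3 matches, and chr19:34640639-34640888, plus strand, for Ifit1 with 2 matches.
Isg15: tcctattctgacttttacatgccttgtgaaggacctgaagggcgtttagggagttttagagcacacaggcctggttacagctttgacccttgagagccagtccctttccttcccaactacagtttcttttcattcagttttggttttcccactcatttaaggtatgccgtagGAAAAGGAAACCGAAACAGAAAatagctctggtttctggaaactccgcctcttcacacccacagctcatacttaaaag
Ifit1: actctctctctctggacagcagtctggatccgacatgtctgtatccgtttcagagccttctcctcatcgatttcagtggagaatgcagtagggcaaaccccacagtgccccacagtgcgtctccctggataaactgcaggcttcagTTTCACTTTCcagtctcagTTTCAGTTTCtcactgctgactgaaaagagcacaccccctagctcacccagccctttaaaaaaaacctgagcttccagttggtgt

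Markers of macrophages and genes of the acute phase lay in the same direction. Of 12 macrophage and Kupffer cell markers, Kupffer cells being the resident macrophages of liver, none was called and 11 were lower in 7-HC (median -0.63). Of these, 6 had an unadjusted p under 0.05, beside 6.54% of all genes for that direction. Control replicate 2 was highest for 9 of the 12 and 7-HC replicate 3 lowest for 9, and without either the 6 became 3. C1qa, a complement C1q chain gene of macrophages, was at 28.9, 25.3 and 24.9 FPKM in 7-HC and 45.3, 59.3 and 46.0 FPKM in control (log2 fold change -0.91, adjusted p = 0.191 from limma). Clec4f, which marks Kupffer cells, was at 21.8, 19.3 and 16.4 FPKM in 7-HC and 28.3, 35.3 and 26.2 FPKM in control. The summed markers were 144.3 to 167.3 FPKM in 7-HC and 223.6 to 339.6 FPKM in control, and the part of these cells in the interferon and acute-phase values was not tested. Control replicate 3 held 244.8 FPKM of this sum. Of 27 acute-phase genes none was called and 24 were lower (median -0.45). At an unadjusted p under 0.05, 8 were lower, beside 6.54% of all genes. In 12 the 7-HC values all lay below the control values, against 10% of all genes in that direction. Hp, encoding haptoglobin, was at 1161.2, 1061.3 and 811.3 FPKM in 7-HC and 1638.7, 1906.7 and 1336.7 FPKM in control (log2 fold change -0.69, adjusted p = 0.217 from limma). Saa1, a serum amyloid gene, had 34.0, 32.3 and 22.3 FPKM in 7-HC and 170.8, 84.9 and 34.4 FPKM in control. Hamp2, a hepcidin gene, was an outlying case, at 2.26 FPKM in 7-HC replicate 1 and 479.1 and 914.5 FPKM in the other 7-HC mice, against 125.4 to 190.4 FPKM in control.

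**Figure D3:**
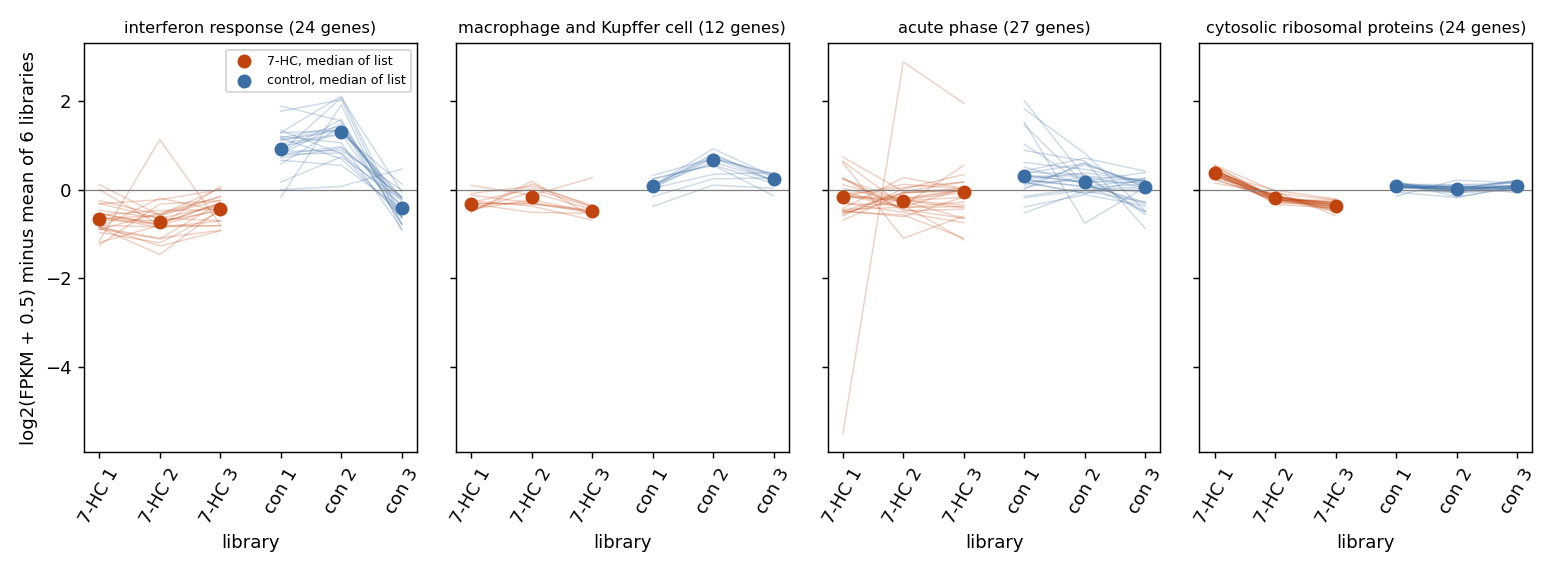
Each library's log2(FPKM + 0.5) relative to the mean of the 6 libraries, for the genes of 4 lists; thin lines join the values of 1 gene within a group and large points are list medians, with 7-HC libraries left of the control libraries (con). Control replicate 3 lies near the 7-HC libraries for the interferon response but not for macrophage markers, and the ribosomal protein genes differ among the 7-HC libraries more than between the groups.

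Protein-folding genes of the endoplasmic reticulum also lay lower. None was called among 22 tested genes of unfolded-protein and stress signalling, and 18 were lower (median -0.34). At an unadjusted p under 0.05, 6 were lower, beside 6.54% of all genes. In 9 the 7-HC values all lay below control, beside 10% of all genes in that direction. 7-HC replicate 2 was lowest for 13 of the 22, and without it the median was -0.21 with 4 at an unadjusted p under 0.05. There were also 4 without control replicate 2 or control replicate 3. Calr, encoding the chaperone calreticulin, was at 195.4, 121.5 and 160.5 FPKM in 7-HC and 267.6, 299.5 and 239.9 FPKM in control (log2 fold change -0.78, adjusted p = 0.198 from limma). Xbp1, a transcription factor of the same response, was at 45.5, 59.8 and 50.3 FPKM in 7-HC and 80.8, 77.2 and 67.5 FPKM in control (adjusted p = 0.239 from limma). Of 14 immediate early genes, induced within minutes by many stimuli, 11 were lower with a median of -0.37, none was called and 4 were lower at an unadjusted p under 0.05, beside 6.54% of all genes. Control replicate 1 was highest for 8 of the 14, and the 4 became 2 without it and 1 without 7-HC replicate 2. With a library left out the median ranged from -0.70, without control replicate 3, to -0.25, without control replicate 1. Nr1d1, the clock repressor REV-ERB alpha, was at 21.1, 12.4 and 13.7 FPKM in 7-HC and 37.7, 30.8 and 42.7 FPKM in control (log2 fold change -1.24, adjusted p = 0.155 from limma), and none of 16 clock genes was called, with 1 higher and 1 lower at an unadjusted p under 0.05.

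Genes of central metabolism lay slightly higher in 7-HC, with none called. The median was 0.31 for 20 genes of the urea cycle and amino acid catabolism, 0.25 for 21 of glucose metabolism and 0.11 for 28 of oxidative phosphorylation, with 1, 2 and 1 genes higher and 0, 2 and 0 lower at an unadjusted p under 0.05 in the order given. Got1, the cytosolic aspartate aminotransferase gene, was at 184.3, 304.5 and 191.8 FPKM in 7-HC and 57.9, 91.4 and 78.6 FPKM in control (log2 fold change 1.56, adjusted p = 0.311 from limma). Fbp1, of gluconeogenesis, was at 920.1, 1066.5 and 977.9 FPKM in 7-HC and 730.3, 716.7 and 621.0 FPKM in control (adjusted p = 0.204 from limma). For oxidative phosphorylation 7-HC replicate 1 held the highest value of 23 of the 28 genes, and without it the median was 0.03. The same library was highest for all 24 cytosolic ribosomal protein genes, which summed to 9832, 6722 and 5886 FPKM in 7-HC and 7459 to 7945 FPKM in control. Their median was -0.11 with 0 genes at an unadjusted p under 0.05, and without 7-HC replicate 1 it was -0.33 with 16 lower at that level. Without 7-HC replicate 3 it was 0.04, so the direction of this list is not settled. Erythroid genes, which blood in a tissue carries, summed to 797.9 to 2780 FPKM in 7-HC and 537.5 to 816.5 FPKM in control. Most of the sum was Hba-a1, and 4 of the 6 tested members had a positive log2 fold change. Alas2, of heme synthesis in red cell precursors, stood the other way at 10.3, 29.5 and 31.9 FPKM in 7-HC and 40.8, 63.0 and 24.6 FPKM in control, and Car1 had a log2 fold change of -0.18. Hba-a1, an alpha-globin gene, did not overlap, and was at 1249.3, 2003.1 and 688.0 FPKM in 7-HC and 581.5, 511.9 and 454.4 FPKM in control (adjusted p = 0.340 from limma). The part of blood and of this library in the other results was not tested.

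Of the genes that the study followed as proteins, enzyme activities or RNA, none of those given here passed. Nrf2, encoded by Nfe2l2, is a transcription factor of antioxidant genes that Keap1 holds in check. Nfe2l2 was at 33.5, 23.3 and 23.5 FPKM in 7-HC and 25.6, 24.3 and 24.5 FPKM in control, with a log2 fold change of 0.09 (95% interval -0.32 to 0.49), and its sign turned without 7-HC replicate 1. The interval was -0.33 to 0.18 for Keap1 and -0.68 to 0.53 for Hmox1, which encodes heme oxygenase 1. None of 21 Nrf2 targets tested was called, their median was -0.09, and 1 was higher and 2 lower at an unadjusted p under 0.05. Hdac1, the histone deacetylase gene, was at 7.19, 7.10 and 9.07 FPKM in 7-HC and 8.89, 9.03 and 10.5 FPKM in control. The groups overlapped, and the log2 fold change was -0.27 (95% interval -0.54 to -0.0034, adjusted p = 0.513 from limma). None of 17 histone deacetylase genes and none of 10 acetyltransferase genes was called, and 1 of each list was lower at an unadjusted p under 0.05. For the antioxidant enzymes the intervals were -0.14 to 0.60 for Sod1, -0.27 to 0.47 for Sod2 and -0.78 to 0.33 for Cat. They were -0.16 to 0.59 for Casp9, an apoptotic caspase gene, and -1.33 to 0.44 for Lcn2, a marker of tubular injury in kidney. Apart from that of Hdac1, which lay wholly below 0 in this fit, these intervals leave room for changes of such size in either direction. After scaling by median ratios or to equal sums, no histone deacetylase gene, Hdac1 included, had an unadjusted p under 0.05. The same held with only the 6 libraries of 7-HC and control and without 7-HC replicate 2.

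The same dose of 7-HC was also given with colistin, and those libraries are independent of the 6 above. With limma none of the 10282 genes was called in colistin + 7-HC against colistin, while 1268 (12.3%) had an unadjusted p under 0.05. Of the 21 genes called in 7-HC against control, 12 had the opposite sign there and 4 had an unadjusted p under 0.05. These 4 were Shank2, Hectd2, Hsd3b2 and Pmvk, all with the opposite sign. The test of the difference between the effects of 7-HC with and without colistin called 28 genes (0.272%), of which 10 were among the 21. It contains the same 7-HC against control difference by which the 21 were selected, so an overlap is built in. The levels from which 7-HC was compared differed with colistin. Alb made up 3.80% to 4.87% of the values in colistin + 7-HC and 2.95% to 4.18% in colistin, below its share in the other 6 libraries, and its part in these differences was not tested. Mt1 averaged 1214.5 ± 330 FPKM in 7-HC and 273.3 ± 97.5 FPKM in control (SD, n = 3 each). It averaged 5783 ± 1202 FPKM in colistin + 7-HC and 7156 ± 632 FPKM in colistin (SD, n = 3 each), so that both colistin groups lay above the 7-HC group. The log2 fold change was 2.18 without and -0.32 with colistin, with a difference of -2.50 (adjusted p = 0.0412 from limma). Mt2 likewise averaged 806 FPKM in 7-HC and 206 FPKM in control, against 4852 FPKM in colistin + 7-HC and 5575 FPKM in colistin (difference -2.18, adjusted p = 0.0369 from limma). Several genes were at low levels in both colistin groups. Hsd3b5 was at 0.03, 0.03 and 0.09 FPKM in colistin + 7-HC and 0.07, 0.17 and 0 FPKM in colistin, under the pseudocount of 0.5, so the difference of 3.88 says nothing of the effect of 7-HC in those mice. Hsd3b2 averaged 2.03 FPKM in colistin + 7-HC and 0.88 FPKM in colistin, near the pseudocount, with a log2 fold change of 0.86 there (difference 2.98, adjusted p = 0.0343 from limma). Acot1, which rose with 7-HC alone, averaged 0.77 FPKM in colistin + 7-HC and 0.67 FPKM in colistin, and its difference did not pass (adjusted p = 0.0648 from limma). Tm7sf2 and Ropn1l stood near their control levels in both colistin groups. Tm7sf2 averaged 53.0 FPKM in colistin + 7-HC and 55.7 FPKM in colistin (difference -1.24, adjusted p = 0.0343 from limma), and Ropn1l averaged 7.72 FPKM in colistin + 7-HC and 8.18 FPKM in colistin (difference -0.96, adjusted p = 0.0343 from limma). Adh4 averaged 23.98 FPKM in colistin + 7-HC and 23.9 FPKM in colistin, below its 33.3 FPKM in 7-HC and 80.6 FPKM in control (difference 1.27, adjusted p = 0.0473 from limma). The 28 calls are fragile, since they went to 0 with the replicate number as a block or without any 1 of 6 libraries, and to 122 without colistin replicate 2.

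**Figure D4:**
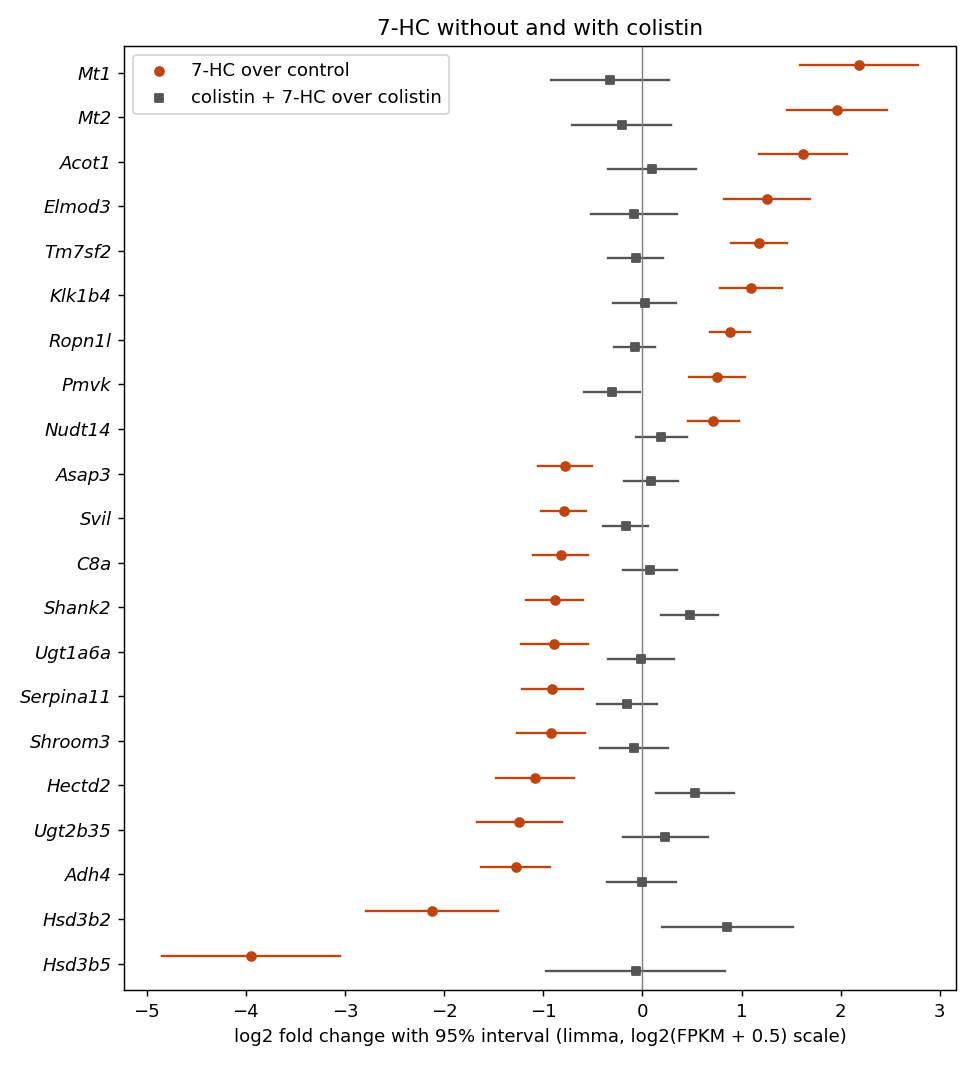
Log2 fold change with its 95% interval for the 21 genes called in 7-HC against control (circles), above the value of the same gene for colistin + 7-HC over colistin (squares). The circles all lie away from 0, as their selection requires, while most squares lie near 0, from -0.32 for Mt1 to 0.86 for Hsd3b2; for Hsd3b5 both colistin groups were under the pseudocount.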

How the data were processed

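Libraries sequenced on a BGISEQ-500 were analysed from the deposited table. Per the methods and processing notes, the authors cleaned reads (SOAPnuke), mapped them with HISAT2 2.0.4 and Bowtie2 2.2.5 to GRCm38.p6 and quantified genes with RSEM 1.2.12. The unit of the deposited values is not named; they are not whole and sum unequally, so they were taken as FPKM made by the authors. Blank genes (5161) were left out. Values were tested as log2(FPKM + 0.5), which understates changes of low genes, with limma 3.58.1 (R 4.3.3, mean-variance trend, all 12 libraries in 1 fit, a term per group, Benjamini-Hochberg adjustment, called under 0.05). An exact two-sided permutation test of 3 against 3 cannot go below p = 0.1, which all 21 called genes gave.

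Groups came from the labels. Members and lists (30 pathway, 15 marker) were chosen with earlier results of these data known. Named genes were the up to 12 largest rises and falls called without overlap (filled to 10 by p, which added 2010003K11Rik), genes the study measured, up to 4 called or else 2 members of smallest p of each list, the 5 most abundant, and up to 10 also called in the interaction; other genes were named after their values were seen. Some genes under this rule are not reported here. Alternatives were other filters, pseudocounts, scalings, a 6-library fit, the replicate block and each library left out. RefSeq held 21633 of the identifiers.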

Additional observations from a re-analysis of the deposited data

Results flagged for a closer look

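By limma's test of the difference between the effects of 7-HC with and without colistin, 14 of the 105 named genes passed at an adjusted p under 0.05. Over all 10282 genes tested, 28 passed (0.272%). Named genes were partly chosen for passing this test or for a large change with 7-HC alone. The count of 14 is therefore no measure of how often the effect differed. With the replicate number as a block the 28 calls went to 0. Values are the log2 fold change of colistin + 7-HC over colistin minus that of 7-HC over control. Among the genes that rose with 7-HC alone, the difference was -2.50 for Mt1, -2.18 for Mt2, -1.24 for Tm7sf2, -1.06 for Pmvk and -0.96 for Ropn1l. Among those that fell, it was 3.88 for Hsd3b5, 2.98 for Hsd3b2, 1.61 for Hectd2 and 1.27 for Adh4. It was 1.36 for Shank2, which passed the filter only through the control libraries. These values rest on unlike starting levels. Hsd3b5 averaged 0.05 FPKM in colistin + 7-HC and 0.08 FPKM in colistin, under the pseudocount, so its difference says nothing of the effect of 7-HC in those mice. Hsd3b2 averaged 2.03 FPKM in colistin + 7-HC and 0.88 FPKM in colistin (log2 fold change 0.86). Hectd2 averaged 1.62 FPKM in colistin + 7-HC and 0.98 FPKM in colistin (log2 fold change 0.53). The part of these low levels in the differences was not tested. Mt1 averaged 5783 FPKM in colistin + 7-HC and 7156 FPKM in colistin, above its 1214.5 FPKM in 7-HC and 273.3 FPKM in control. The other 4 did not pass in 7-HC against control: 2.92 for the interferon-response gene Usp18, 1.13 for the replication gene Mcm6, -1.50 for Ppp1r3b, which targets a phosphatase to glycogen, and -1.65 for 2010003K11Rik. The groups hold 3 mice each, too few for the check of single outlying samples that was planned for groups of 4 or more.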

How the results depend on the processing

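The 21 genes called kept their direction under every alternative in which they were tested. Mt2 was called under all 15 alternatives, and Mt1, Acot1, Tm7sf2, Ropn1l, Adh4 and Hsd3b5 under 14 of these 15. The other called genes were called under fewer, from 12 for Svil to 2 for Ugt1a6a and Shroom3. The count of genes called was 2 with only the 6 libraries, 17 (10 higher) with no filter on low values, 14 with equal sums (7 higher) and 8 to 56 with 1 library of these groups left out, the 56 being without control replicate 3 (10 higher and 46 lower), where 1 gene reached the paper's thresholds. It was 8 without 7-HC replicate 2 or control replicate 2, 9 without 7-HC replicate 1 and 11 without control replicate 1. With the replicate number as a block the count was 8, of which 6 were higher; the numbers do not pair the mice, since residuals of same-numbered libraries correlated at -0.02, -0.18 and 0.11 and 2 libraries correlated best with their own number. Genes of the lists called numbered 5 with no filter or with the block, 1 with only the 6 libraries and 5 to 17 with a library left out. For colistin + 7-HC against colistin the count was 1 with no filter or with a filter over 12 libraries, and 0 to 436 with a library left out, 436 without colistin replicate 2. The interaction gave 5 genes with no filter, 6 with a pseudocount of 0.1, 10 with equal sums, 0 with the block and 0 to 122 with a library left out. Of the 1558 values of named genes, 1435 kept their side of the threshold and their sign, 114 lost it, 3 gained it and 6 changed sign, none of a called gene. These were Ly6g, Apoa2 and Nfe2l2 without 7-HC replicate 1, Apoe without 7-HC replicates 2 or 3 and Hspa1a without control replicate 2, and with a library left out their log2 fold changes ranged from -0.3085 to 0.0847 for Ly6g, -0.02403 to 0.3278 for Apoa2, -0.08264 to 0.1741 for Nfe2l2, -0.2211 to 0.01732 for Apoe and -1.565 to 0.001284 for Hspa1a. The cause was not tested. Depth is unknown, so the error of low values cannot be given.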

Other observations

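Several lists not described above held no called gene by limma. Of 13 bile acid synthesis genes, 4 were lower at an unadjusted p under 0.05, beside 6.54% of all genes, and the median was -0.20. The 4 became 2 without 7-HC replicate 2, and the median was -0.09 without 7-HC replicate 1 or 3. Hsd3b7, an enzyme gene of this pathway, averaged 73.9 FPKM in 7-HC and 120.5 FPKM in control (log2 fold change -0.70, limma adjusted p = 0.122), and Cyp7b1, an oxysterol hydroxylase gene, averaged 5.60 FPKM in 7-HC and 14.1 FPKM in control (limma adjusted p = 0.204). Of 17 drug transporter genes, 2 were higher and 1 lower at an unadjusted p under 0.05. Slc22a5, the carnitine transporter gene, averaged 13.7 FPKM in 7-HC and 8.19 FPKM in control (log2 fold change 0.71, limma adjusted p = 0.271). Abcg2, an efflux pump gene, averaged 15.4 FPKM in 7-HC and 20.2 FPKM in control (limma adjusted p = 0.472). Of 18 apoptosis genes, Gadd45g was the 1 lower at an unadjusted p under 0.05, with 7.35 FPKM in 7-HC and 22.4 FPKM in control on average (limma adjusted p = 0.352). At that level there were 0 genes in either direction among 15 of the cytosolic heat shock response (median -0.03, ranging from -0.30 without 7-HC replicate 1 to 0.12 without control replicate 2), 12 of NF-kB and inflammation (median -0.16), 10 endothelial markers (median 0.13) and 11 of stellate cells and fibroblasts (median -0.25).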
